A study of Mus musculus with 8 samples.

Results

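The enzymes that write and erase methyl groups on histones were followed over 4 stages of mouse spermatogenesis. They were chosen by gene symbol: the Kmt2 and Kmt5 groups, the Setd, Setdb, Suv39h, Ehmt, Ezh, Nsd, Smyd, Prmt and Kdm groups, and Prdm9, Dot1l, Eed and Suz12. The symbol rule uses no measured value, but the members were chosen with earlier results of these data known. On the arrays, 172 of 45101 probe sets belonged to these genes and to no other gene, and they stood for 62 of 18193 genes. Suv39h1, Ash1l and Setd9 were not analysed here. The symbol rule also took in Ezhip, which is an inhibitor of an H3K27 methyltransferase complex and not an enzyme. Of the 62 genes, 61 were tested; Prmt8, an arginine methyltransferase known from the nervous system, was not, because its signals of 1.1 to 18.7 lay below the array median on all 8 arrays.

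The stages were spermatogonia of type A and of type B, spermatocytes at pachytene, and round spermatids, each with 2 arrays of total RNA from separate germ cell preparations of mice. The labels name no treatment. All 8 carry the strain label BL/6-129, and neither age nor the method of cell purification is given in the sources used here. Signals are MAS5 intensities on a linear scale, scaled by the authors to an equal trimmed mean. Each gene is represented by its brightest probe set. Changes are differences of log2(signal + 16), which understates the change of dim genes, and ± after a change is the standard error of a limma fit over all 8 arrays with n = 2 per group. A gene is called, and is said to rise or fall, at an adjusted p under 0.05 (limma, Benjamini-Hochberg over 14155 tested genes, two-sided).

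Lysine methyltransferases add methyl groups to defined residues of histones H3 and H4, and lysine demethylases of the flavin-dependent KDM1 pair and of the Jumonji family remove them. Methylation of H3K4 marks promoters and enhancers, H3K36 and H3K79 methylation lie over transcribed genes, and trimethylation of H3K9, H3K27 and H4K20 marks repressed chromatin. In male meiosis, H3K4 methylation by PRDM9 sets the sites of recombination, H3K9 methylation takes part in chromosome pairing and in the silencing of the unpaired X and Y, and after meiosis the histones themselves are largely exchanged for protamines.

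The promoter windows of 3 members are printed because these genes carried the largest changes or the motif matches of the set: Suv39h2 had the largest increase in spermatids, Kdm4d the largest increase in pachytene cells, and Prmt9 is the other member with a CRE match. The RefSeq table (build GRCm38.p6) held a window of 250 bases before to 50 bases after the gene start for 50 of the 62 members. The searched motifs were TGACGTCA (the cAMP response element, CRE), GNCAGTT (MYB family) and TTTCCCGC or TTTGGCGC (E2F), on both strands. The 250 bases before the start are shown 5′ to 3′ on the gene's strand, with the matches in capitals. The Suv39h2 window is chr2:3474987-3475236 on the minus strand, with a CRE match that begins 85 bases and a MYB match that begins 172 bases before the start. The Prmt9 window is chr8:77549147-77549396 on the plus strand, with a CRE match that begins 44 bases before the start. The Kdm4d window is chr9:14500483-14500732 on the minus strand and holds none of these letters.
Suv39h2: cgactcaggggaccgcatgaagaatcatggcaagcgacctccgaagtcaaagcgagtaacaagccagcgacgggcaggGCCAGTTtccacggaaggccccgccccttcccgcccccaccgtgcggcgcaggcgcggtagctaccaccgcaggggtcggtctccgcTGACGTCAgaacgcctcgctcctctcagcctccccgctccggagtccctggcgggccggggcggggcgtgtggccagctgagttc
Prmt9: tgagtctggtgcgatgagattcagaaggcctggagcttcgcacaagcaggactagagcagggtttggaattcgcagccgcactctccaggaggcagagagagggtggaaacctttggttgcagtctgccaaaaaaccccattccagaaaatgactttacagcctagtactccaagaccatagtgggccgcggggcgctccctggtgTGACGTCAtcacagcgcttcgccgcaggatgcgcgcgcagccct
Kdm4d: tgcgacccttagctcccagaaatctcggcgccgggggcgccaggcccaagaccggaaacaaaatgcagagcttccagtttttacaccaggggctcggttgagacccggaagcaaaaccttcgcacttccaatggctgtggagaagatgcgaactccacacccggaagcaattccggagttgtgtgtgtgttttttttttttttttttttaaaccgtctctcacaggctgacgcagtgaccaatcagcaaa
Over the 300 bases, the CRE letters were in 2 of 50 member windows (4%) and in 2.03% of the windows of all 27025 genes. The MYB letters were in 5 of 50 (10%; Kdm4c, Kdm6a, Prmt1, Setd7 and Suv39h2), against 14.5% of all. The E2F letters were in 3 of 50 (6%; Ezh2, Kmt5c and Suz12), against 1.8% of all. These shares describe letters, not binding.

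The marker lists separated spermatogonia, pachytene cells and spermatids only in part. The summed signal of 7 spermatogonial markers was 5816 to 6336 in type A, 3923 to 6184 in type B, 614 to 699 in pachytene cells and 1075 to 1116 in spermatids, so it did not set type A and type B apart. The 8 pachytene markers summed to 1978 to 2296 in type A, 18276 to 18796 in pachytene cells and 19865 to 19898 in spermatids, so they set pachytene cells apart from type A but not from spermatids. The 8 round spermatid markers summed to 27421 to 31871 in spermatids, against 2743 to 3153 in pachytene cells. Type B replicate 2 carried later-stage RNA: its 8 pachytene markers summed to 9349 and its 8 spermatid markers to 1841, against 3497 and 184 in replicate 1. Markers of somatic testis cells were high on the spermatogonial arrays. The 6 peritubular, stromal and endothelial markers summed to 720 to 942 in pachytene cells, against 7574 to 10077 in type A and 10282 to 10307 in type B, and all 6 were lower on both pachytene arrays than on both type A arrays. The 8 Sertoli markers summed to 2710 to 3436 in pachytene cells, against 5517 to 7572 in type A, with 7 of 8 lower on both arrays, and to 551 to 608 in spermatids. Leydig markers summed to 517 to 945 in pachytene cells, against 631 to 1167 in type A, with 2 of 4 lower on both arrays. In spermatids they summed to 88.5 to 88.8. Macrophage and blood markers summed to 241 to 255 in pachytene cells, against 548 to 642 in type A, with 4 of 7 lower on both arrays. In spermatids they summed to 467 to 485, with 6 of 7 above both pachytene values. No marker of the somatic lists was listed at 0 on any array. The stromal, Sertoli and macrophage sums moved with the falls in pachytene cells given below, and the Sertoli and Leydig sums with the falls in spermatids; their part in these falls was not tested. In these bulk samples, fewer cells of a type and less RNA per cell cannot be told apart.

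**Figure D1:**
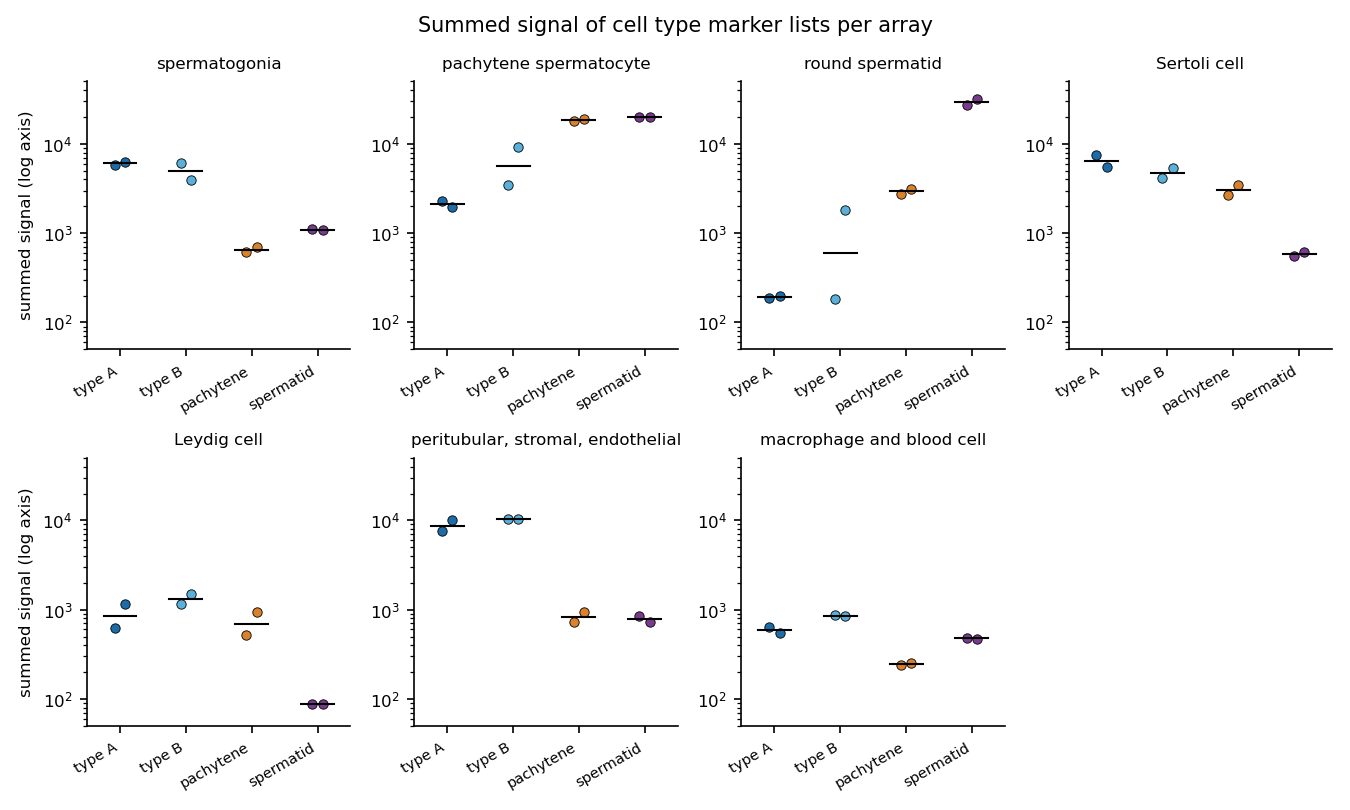
Summed signal of 7 cell type marker lists on each of the 8 arrays (log axis), by stage; points are arrays and bars are group means on the log2(signal + 16) scale. Type B replicate 2 stands at 1841 for the spermatid list, against 184 in replicate 1, and the peritubular, stromal and endothelial list is 7574 to 10307 on the spermatogonial arrays and at most 942 on the later ones.

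Most of the histone methylation enzymes called between pachytene and type A cells were lower in pachytene cells. Between pachytene and type A cells, 6 of the 61 members rose and 33 fell, and 22 were not called. The rises and falls are 9.84% and 54.1% of the members, beside 27.2% of all tested genes called higher and 35.6% called lower. The 6 include Nsd3, whose probe sets disagree. The 33 include Kdm5d and Setd7, as do the falls against type B given below. Both passed the filter through the spermatogonial arrays alone, and were called without the filter too. Ezhip, Kdm4b and Smyd4, also among the 33, lay above the array median on 5 of 8 arrays. They would not have passed without the spermatogonial arrays, and were likewise called without the filter. The median log2 change of the members was -0.96 (lowest -2.98, highest 4.33), beside -0.14 over all 14155 genes. On both arrays, 41 members were below both type A values and 11 above them, beside 45.6% and 37.1% of all genes. The median of all genes depends on the scaling and was 0.21 with each array centred on its median, where the members' median was -0.61 and 36.3% of all genes were called higher and 27.2% lower. Under quantile normalization or centring on the median, the calls of Kdm4b, Kdm4c, Kdm5a, Kdm5c, Smyd5 and Prmt7 were lost. The stromal and Sertoli marker sums were lower in pachytene cells too.

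The comparison with type B cells used the same pachytene arrays and is set beside the first, not added to it. There, 9 members rose (14.8%, beside 25.5% of all genes) and 28 fell (45.9%, beside 32.7%), with a median of -0.64, beside -0.07 over all genes. On both arrays, 37 members were below both type B values and 16 above them, beside 43.1% and 37.4% of all genes. With each array centred on its median, 15 rose and 25 fell, while 37.9% of all genes were called higher and 23.5% lower. Under that or quantile normalization the calls of Ezh2, Setd3, Prmt7, Prdm9, Smyd2 and Prmt9 were lost. Leaving out a pachytene array leaves 1 in that group. Fewer members than 9 then rose, and fewer of all genes were called higher too. The highest of the 4 stage means was in type A cells for 34 of 61 members (55.7%, beside 31.8% of all genes) and in type B, pachytene and spermatid cells for 9 each. The lowest mean was in spermatids for 26 members (42.6%, beside 36.7% of all genes) and in pachytene cells for 22 (36.1%, beside 24.1% of all genes).

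**Figure D2:**
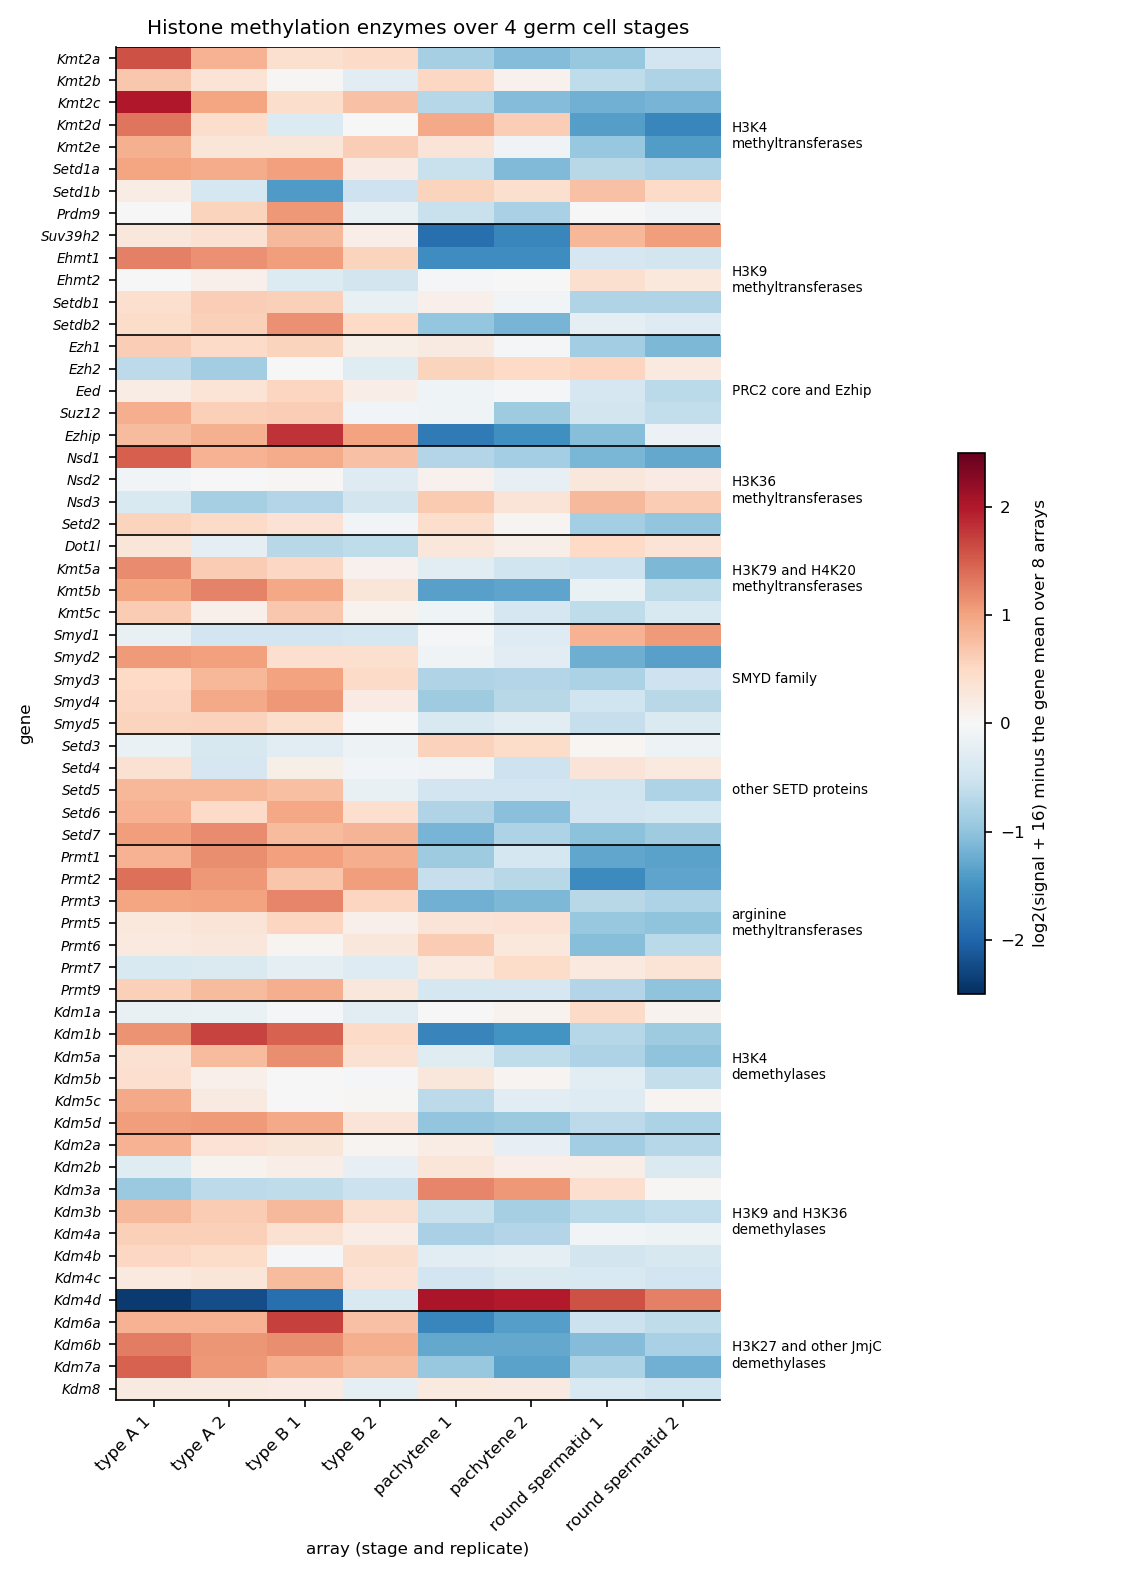
Log2(signal + 16) of 61 genes on the 8 arrays, minus each gene's mean over the arrays, with genes grouped by the residue or family; red is above and blue below the gene's mean. Kdm4d, Kdm3a and Ezh2 are among the genes that are red on the pachytene arrays, Suv39h2 and Ehmt1 are blue on both pachytene arrays, and type A carries the highest stage mean for 34 genes.

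After meiosis fewer members were called than between pachytene and type A, and so were fewer of all genes. Between round spermatids and pachytene cells, 6 members rose (9.84%, beside 15.9% of all genes) and 12 fell (19.7%, beside 19% of all genes), and the median change was -0.04, beside -0.06 over all genes. On both arrays 26 members lay below and 18 above both pachytene values, beside 40.6% and 32.4% of all genes. The 18 calls rest on few arrays. Leaving out a pachytene or spermatid array leaves 1 in that group. Fewer members were then called, and so were fewer of all genes. Under another scaling the calls of Kdm2a and Setdb2 were lost. Without both type B arrays, which are no part of this comparison but widen its shared spread, 10 rose and 17 fell. Of all genes, 19.1% were then called higher and 23.6% lower. Of the 33 members that fell between type A and pachytene cells, 5 rose again in spermatids (Ehmt1, Kdm4a, Kmt5b, Setdb2 and Suv39h2), 2 fell further (Prmt2 and Smyd2) and 26 were not called. Both comparisons use the pachytene arrays, so a low value there enters both. The matching shares over all genes were not counted, so these numbers are not set apart from those of other genes.

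**Figure D3:**
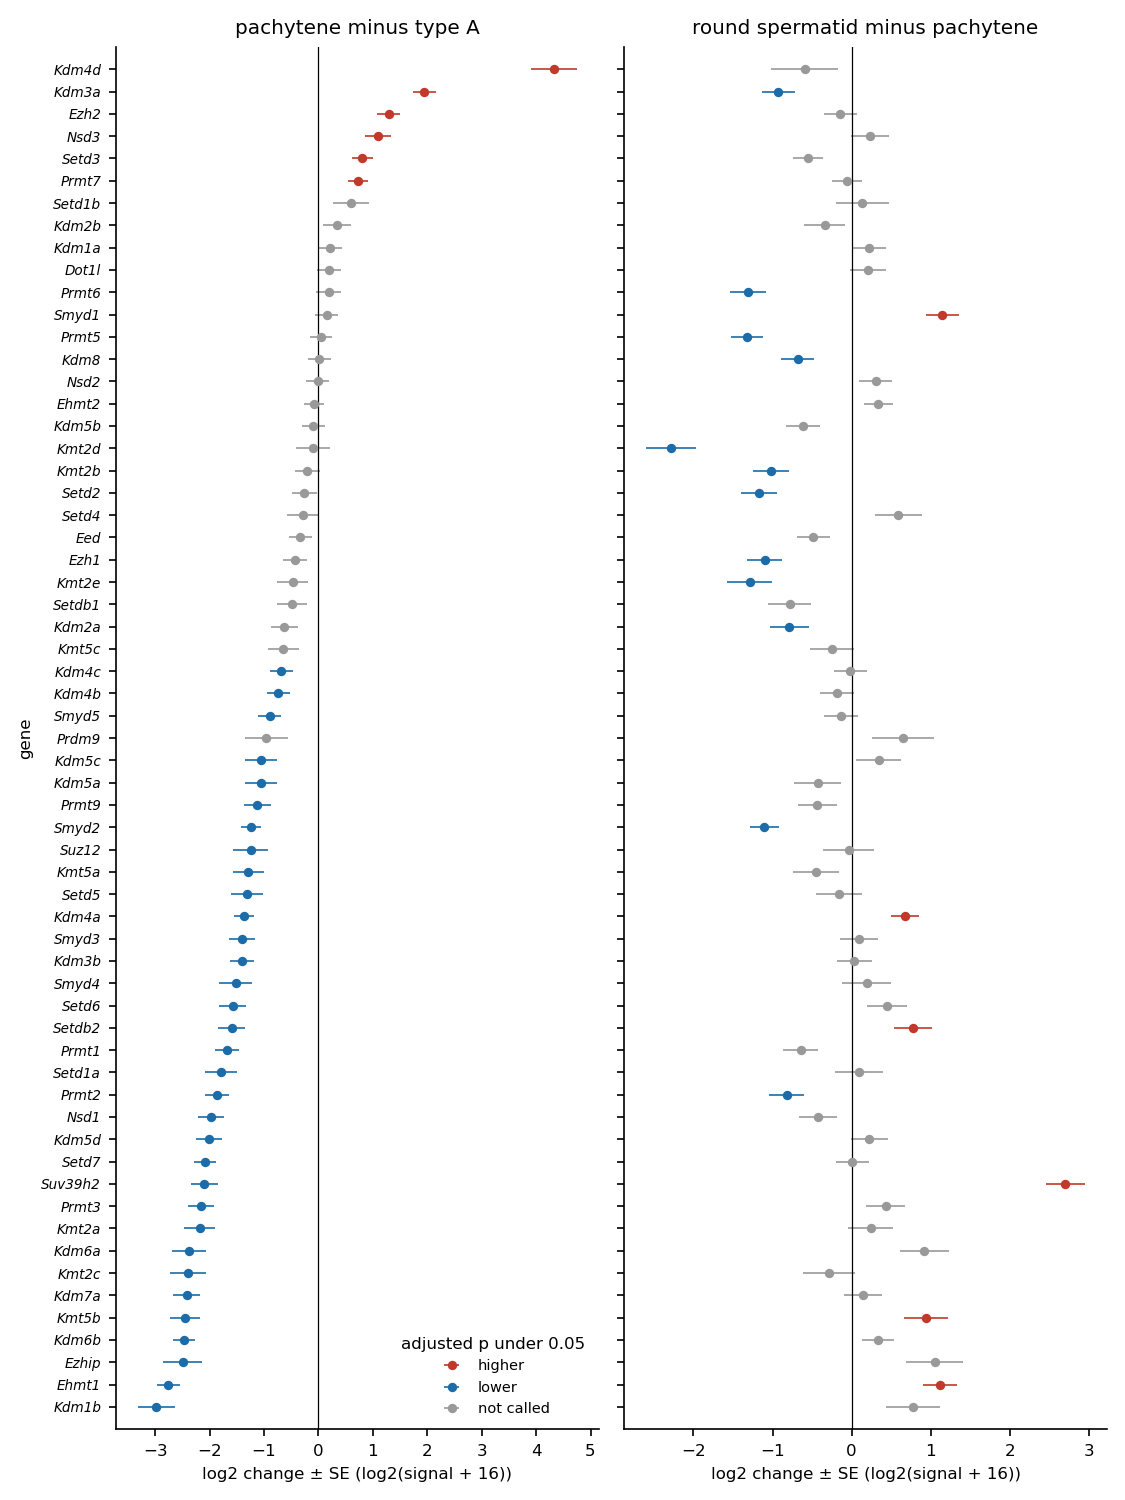
Log2 change ± SE (n = 2 arrays per group) of 61 genes, pachytene minus type A on the left and round spermatid minus pachytene on the right, in the order of the left panel; red is called higher, blue called lower and grey not called. On the left, 33 genes are blue, down to -2.98 for Kdm1b, and 6 are red, up to 4.33 for Kdm4d; on the right, Suv39h2 stands at 2.70 and Kmt2d at -2.28.

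Of the 5 H3K9 methyltransferases, Suv39h2, Ehmt1 and Setdb2 fell in pachytene cells against type A and rose in spermatids against pachytene, while Ehmt2 and Setdb1 were called in neither comparison. Of all genes, 35.6% fell in pachytene cells and 15.9% rose in spermatids, and the share with both calls was not counted. Suv39h2, an enzyme of H3K9 trimethylation known from the testis, had signals of 209.5 and 224.2 in type A, 307.9 and 192.4 in type B, 34 and 43.3 in pachytene cells, and 313 and 365.8 in round spermatids. The pachytene values were the lowest, near the array medians of 36.2 and 34.2, and did not overlap with any other stage. It fell by 2.10 ± 0.25 in pachytene against type A (adjusted p = 0.00024) (-2.25 ± 0.25 against type B), and rose by 2.70 ± 0.25 in spermatids against pachytene (adjusted p = 0.000143), which is 6.51-fold on that scale. Its second probe set, 1433996_at, fell by 2.42 ± 0.25 and then rose by 2.19 ± 0.25. The third, 1436561_at, was dim, with 4 and 4.6 in pachytene cells, against 40.2 and 51.9 in type A, and with 7.3 and 4.5 in spermatids.

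Ehmt1, the GLP subunit of the complex that mono- and dimethylates H3K9, had signals of 949.2 and 867.9 in type A, 810.6 and 571.7 in type B, 120.1 and 120.7 in pachytene cells, and 284.9 and 274.8 in spermatids. It was 6.77-fold lower in pachytene cells than in type A (log2 change -2.76 ± 0.21, adjusted p = 8.03e-05) and rose by 1.12 ± 0.21 in spermatids against pachytene (adjusted p = 0.00482). Its partner in that complex was not called in these comparisons. Ehmt2, the G9a subunit, had 1355.6 and 1466.4 in type A, 1048.2 and 962.6 in type B, 1317.6 and 1352.8 in pachytene cells, and 1777 and 1611 in spermatids (log2 change -0.08 ± 0.18 in pachytene against type A, adjusted p = 0.73). That difference of Ehmt2 is positive, at 0.27, with each array centred on its median. Against type B the difference of 0.40 ± 0.18 was not called (adjusted p = 0.087), but it was called higher with centring on the median (0.79, adjusted p = 0.00729), with a pseudocount of 64 (adjusted p = 0.0356) and with a variance trend (adjusted p = 0.0404).

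Setdb1, which trimethylates H3K9 at retroelements, had 634.6 and 734.3 in type A, 719.5 and 414.5 in type B, 520.3 and 448.7 in pachytene cells, and 272.2 and 275.4 in spermatids. Its values were lowest in spermatids, but the change of -0.79 ± 0.27 against pachytene missed the threshold (adjusted p = 0.0541). It passed without the type B arrays. In pachytene against type A, Setdb1 was called lower with quantile normalization (-0.76, adjusted p = 0.0439) and without both type B arrays. Setdb2 fell by 1.59 ± 0.24 in pachytene against type A. Its rise of 0.78 ± 0.24 in spermatids (adjusted p = 0.0393) was lost without any 1 of the type A, pachytene or spermatid arrays, with adjusted p of 0.0569 to 0.186.

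Among the 8 genes listed as H3K4 methyltransferases, 3 fell in pachytene cells against type A and none rose. That is 37.5% lower, beside 35.6% of all genes, and 0% higher, beside 27.2%. The list holds Kmt2e, described below as a protein that binds H3K4 trimethylation, and Setd7 was counted with the other SETD proteins. The share thus depends on how the list was drawn. Kmt2c, which monomethylates H3K4 at enhancers, had 819.2 and 393.2 in type A, 265.7 and 327.2 in type B, 110.6 and 81.9 in pachytene cells, and 73.6 and 77 in spermatids. Kmt2a, the MLL protein of promoters, had 622.7 and 369.5, 262.6 and 280.4, 103.5 and 83.9, and 93.7 and 136.2 in the same order of stages. In both genes type A replicate 1 was the highest array, and all pachytene and spermatid values lay below all spermatogonial ones. The log2 changes were -2.39 ± 0.33 for Kmt2c and -2.18 ± 0.29 for Kmt2a, and Setd1a, which trimethylates H3K4 at promoters, fell by 1.79 ± 0.30.

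The largest fall after meiosis was in the paralog of Kmt2c. Kmt2d, the other enhancer methyltransferase, had 470.9 and 243.4 in type A, 136 and 178.2 in type B, 356 and 277.8 in pachytene cells, and 57.7 and 46.5 in round spermatids. Pachytene and type A values overlapped (-0.10 ± 0.32, adjusted p = 0.793). Spermatids were 4.87-fold lower than pachytene cells (log2 change -2.28 ± 0.32, adjusted p = 0.00101). Its rise of 0.94 ± 0.32 against type B (adjusted p = 0.0323) was lost without type B replicate 1, either pachytene array or either spermatid array, with adjusted p of 0.0532 to 0.162.

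Kmt2e, an MLL family protein that binds H3K4 trimethylation, had 709.7 and 465 in type A, 467.8 and 581.4 in type B, 476.1 and 352.2 in pachytene cells, and 187.6 and 133.2 in spermatids. It fell by 1.29 ± 0.29 in spermatids against pachytene (adjusted p = 0.00916), and Kmt2b, another promoter methyltransferase, by 1.02 ± 0.23. Both calls were lost without pachytene replicate 1 or spermatid replicate 2 (adjusted p of 0.0748 and 0.0779 for Kmt2e, and 0.0859 and 0.0726 for Kmt2b). Setd1b, a paralog of Setd1a, rose by 1.43 ± 0.33 in pachytene against type B and was not called against type A (0.60 ± 0.33). With centring on the median, Setd1b was called higher against type A too (0.95, adjusted p = 0.0333).

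Prdm9, the meiotic enzyme that trimethylates H3K4 at recombination hotspots, was a dim gene on these arrays. Its signals were 60.4 and 95.8 in type A, 146.2 and 51.5 in type B, 36.2 and 27.4 in pachytene cells, and 60.7 and 56.2 in round spermatids. Both pachytene values were at or below their array medians and below all others, while the type B replicates spanned all type A and spermatid values. The change was -0.96 ± 0.39 against type A (adjusted p = 0.062). It was called without either or both type B arrays (adjusted p = 0.00514) and with centring on the 75th percentile (adjusted p = 0.0444), and without type B arrays the higher spermatid values were called too (0.64, adjusted p = 0.049). The fall of 1.14 ± 0.39 against type B (adjusted p = 0.0362) rests on type B replicate 1, without which it was -0.50 with an adjusted p of 0.161. That call was also lost without either pachytene or either spermatid array (adjusted p of 0.062 to 0.151).

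The catalytic subunits of PRC2, the complex that methylates H3K27, were called in opposite directions at different steps. Ezh2 had 451.4 and 382.7 in type A, 716.5 and 573.7 in type B, 1064.8 and 1013.2 in pachytene cells, and 1039.1 and 847.6 in round spermatids. Both later stages lay above all spermatogonial values. Ezh2 was 2.44-fold higher in pachytene cells than in type A (log2 change 1.29 ± 0.21, adjusted p = 0.00101). Against type B the rise of 0.68 ± 0.21 was lost without type B replicate 2 or either pachytene array (adjusted p of 0.0857, 0.108 and 0.0805).

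Ezh1, the less active paralog, had 395.2 and 357.1 in type A, 379.7 and 284.2 in type B, 300.9 and 248.5 in pachytene cells, and 131.4 and 107.8 in round spermatids. It was not called between pachytene and type A (-0.44 ± 0.22) and fell by 1.10 ± 0.22 in spermatids against pachytene (adjusted p = 0.00606), a call lost without pachytene replicate 1 or spermatid replicate 2 (adjusted p of 0.0547 and 0.054). Of the structural subunits, Suz12 fell by 1.24 ± 0.33 in pachytene against type A. That call was lost without type A replicate 1 or pachytene replicate 2, with changes of -1.09 and -0.85. Eed was not called (-0.33 ± 0.21), but was called lower with quantile normalization (-0.62, adjusted p = 0.0273).

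Ezhip, the X-linked inhibitor of PRC2, fell where Ezh2 rose. It had 103.6 and 110.9 in type A, 224.2 and 122.8 in type B, 4.1 and 7.8 in pachytene cells, and 16.9 and 46.2 in round spermatids. The pachytene values were far below the array medians, so its fall (-2.49 ± 0.35 against type A and -3.06 ± 0.35 against type B) is understated on this scale. Ezhip passed the filter only with the spermatogonial arrays, so this fall is given as a description. The higher spermatid values were not called (1.05 ± 0.35, adjusted p = 0.0516) and passed without the type B arrays.

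The H3K36 list and the joint list of H3K79 and H4K20 enzymes held 4 tested genes each. Of the 4 H3K36 methyltransferases, Nsd1 fell in pachytene against type A (25%, beside 35.6% of all genes). Nsd3 has no settled direction, since its probe sets disagree. Of the 4 enzymes of H3K79 and H4K20, 2 fell (50%, beside 35.6% of all genes). Setd2, which trimethylates H3K36 behind RNA polymerase, had 436.7 and 409.4 in type A, 380 and 275.8 in type B, 401.4 and 307.8 in pachytene cells, and 153.8 and 139.8 in round spermatids. It fell in spermatids, by 1.18 ± 0.23 (adjusted p = 0.00496), and its difference of -0.26 ± 0.23 between pachytene and type A was not called. Nsd1, a mono- and dimethyltransferase of H3K36, fell by 1.97 ± 0.25 in pachytene against type A.

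Dot1l, the H3K79 methyltransferase, had 529.8 and 357.2 in type A, 257.1 and 271.8 in type B, 524.2 and 477.5 in pachytene cells, and 611.4 and 549.8 in spermatids. Pachytene and type A values overlapped, whereas type B was lowest, and the rise of 0.88 ± 0.23 in pachytene against type B (adjusted p = 0.0108) was lost without pachytene replicate 1 (adjusted p = 0.0661). Kmt5b, which di- and trimethylates H4K20, had 393.6 and 470.1 in type A, 385.3 and 238 in type B, 64.3 and 66.8 in pachytene cells, and 168.6 and 116.4 in spermatids. It fell by 2.45 ± 0.27 in pachytene against type A (adjusted p = 0.000192). The rise of 0.94 ± 0.27 in spermatids was lost without either pachytene array or spermatid replicate 1 (adjusted p of 0.127, 0.109 and 0.18), and 1 of its 3 other fitted probe sets, 1442764_at, had the opposite sign at -0.38 ± 0.28. Kmt5a, the H4K20 monomethyltransferase, fell by 1.29 ± 0.29 in pachytene against type A, a call lost with the mean over its probe sets.

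Of the arginine methyltransferases, 1 of 7 rose (14.3%, beside 27.2% of all genes) and 4 fell (57.1%, beside 35.6%) in pachytene against type A. Prmt1, the main enzyme of asymmetric dimethylation, fell by 1.69 ± 0.22, Prmt2 by 1.86 ± 0.22 and Prmt9 by 1.12 ± 0.25. Prmt3, a cytosolic enzyme that methylates a ribosomal protein, had 321.5 and 326.6 in type A, 378.7 and 230.7 in type B, 57.9 and 62.2 in pachytene cells, and 89.5 and 83.5 in spermatids, and fell by 2.16 ± 0.24 (adjusted p = 0.000196). The rise was that of Prmt7, a monomethylating enzyme, at 0.73 ± 0.19 (adjusted p = 0.00871); it was lost without pachytene replicate 2 (adjusted p = 0.0709), with quantile normalization (adjusted p = 0.0682) and with the mean over probe sets (0.015), and its other probe set was not called, at -0.34 ± 0.30.

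Prmt5, the main enzyme of symmetric dimethylation, fell after meiosis. It had 431.7 and 452.8 in type A, 525.1 and 393.8 in type B, 453.1 and 462.2 in pachytene cells, and 176.4 and 169.8 in round spermatids. The change was 0.05 ± 0.20 in pachytene against type A and -1.32 ± 0.20 in spermatids against pachytene (adjusted p = 0.00158), a 2.51-fold lower level in spermatids. Prmt6, which methylates arginine 2 of H3, had 84 and 87 in type A, 72.5 and 87.3 in type B, 115.5 and 85.4 in pachytene cells, and 24.4 and 37.6 in spermatids, and fell by 1.31 ± 0.23 in spermatids (adjusted p = 0.00307). In pachytene against type A it was not called (0.19 ± 0.23), but was with quantile normalization (0.61, adjusted p = 0.0377). Against type B it was called higher with quantile normalization and with centring on the median (adjusted p = 0.0463 and 0.0321). Its other probe set, 1434209_at, had 43.1 and 37.4 in pachytene cells and 1 to 3.2 on the remaining arrays. It passed the filter through the pachytene arrays alone, so its change is not tested here. The mean over the Prmt6 probe sets takes it in and gave 0.93 against type A. The fall of Prmt2 in spermatids, 0.82 ± 0.22, was lost without any 1 of the pachytene or spermatid arrays (adjusted p of 0.0543 to 0.128).

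In the SMYD family, 4 of 5 members fell in pachytene against type A (80%, beside 35.6% of all genes), with the call of Smyd5 lost under quantile normalization and centring on the median. The 4 include Smyd4, which passed the filter only with the spermatogonial arrays. Smyd2, which methylates H3K36 and several non-histone proteins, had 484.2 and 472.3 in type A, 305.1 and 301.4 in type B, 210.4 and 180.2 in pachytene cells, and 87 and 77.6 in round spermatids. Each stage lay below the one before on both arrays. It fell by 1.23 ± 0.18 in pachytene against type A and by 1.10 ± 0.18 in spermatids against pachytene (adjusted p = 0.000644 and 0.00249). The smaller fall of 0.60 ± 0.18 against type B was lost without type B replicate 1 or either pachytene array (adjusted p of 0.0519, 0.0535 and 0.14). Among the other SETD proteins, Setd7, Setd6 and Setd5 fell in pachytene against type A (-2.08 ± 0.21, -1.58 ± 0.25 and -1.31 ± 0.30). Setd7 passed the filter through the spermatogonial arrays alone, so its change is given as a description. Setd3, an actin histidine methyltransferase, rose by 0.81 ± 0.19, while its other probe set was not called (-1.13 ± 0.55).

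The H3K9 and H3K36 demethylases held the largest rise of the whole set. Kdm4d, a JmjC demethylase of H3K9 that is known from the testis, had signals of 40.2 and 47.7 in type A, 64.7 and 210.4 in type B, 1209.5 and 1161 in pachytene cells, and 874.8 and 695 in round spermatids. Type B replicate 2, the array that carried later-stage markers, was the higher of the spermatogonial values, and no spermatogonial array overlapped with a later one. Kdm4d was 20.1-fold higher in pachytene cells than in type A (log2 change 4.33 ± 0.42, adjusted p = 0.00013) and rose by 3.15 ± 0.42 against type B. Spermatids lay below pachytene cells (-0.59 ± 0.42, adjusted p = 0.323), a difference called lower without the type B arrays.

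Kdm3a, a demethylase of mono- and dimethylated H3K9 that mouse spermatids need to activate protamine genes, had 412.2 and 500 in type A, 511.3 and 547.3 in type B, 1877.9 and 1720.1 in pachytene cells, and 1072.4 and 820.7 in round spermatids. It rose by 1.95 ± 0.21 in pachytene against type A and by 1.73 ± 0.21 against type B (adjusted p = 0.000174 and 0.000379), and spermatid values lay between the pachytene and spermatogonial ones. The fall of 0.93 ± 0.21 in spermatids against pachytene was lost without pachytene replicate 1 or spermatid replicate 2 (adjusted p of 0.0757 and 0.0846). The paralogs fell in pachytene against type A: Kdm3b by 1.41 ± 0.22, Kdm4a by 1.36 ± 0.18, Kdm4b by 0.74 ± 0.21 and Kdm4c by 0.68 ± 0.21. Kdm4b passed the filter only with the spermatogonial arrays, so its fall is given as a description. The falls of Kdm4b and Kdm4c were lost without either pachytene array or type A replicate 1 (adjusted p of 0.058 to 0.105), and that of Kdm4c also without type A replicate 2 (adjusted p = 0.0773). Kdm4a rose by 0.68 ± 0.18 in spermatids against pachytene, a call lost without any 1 of these 4 arrays (adjusted p of 0.0828 to 0.121). The H3K36 demethylase Kdm2a fell by 0.79 ± 0.25 in spermatids, likewise lost without any 1 of them (adjusted p of 0.0636 to 0.222).

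**Figure D4:**
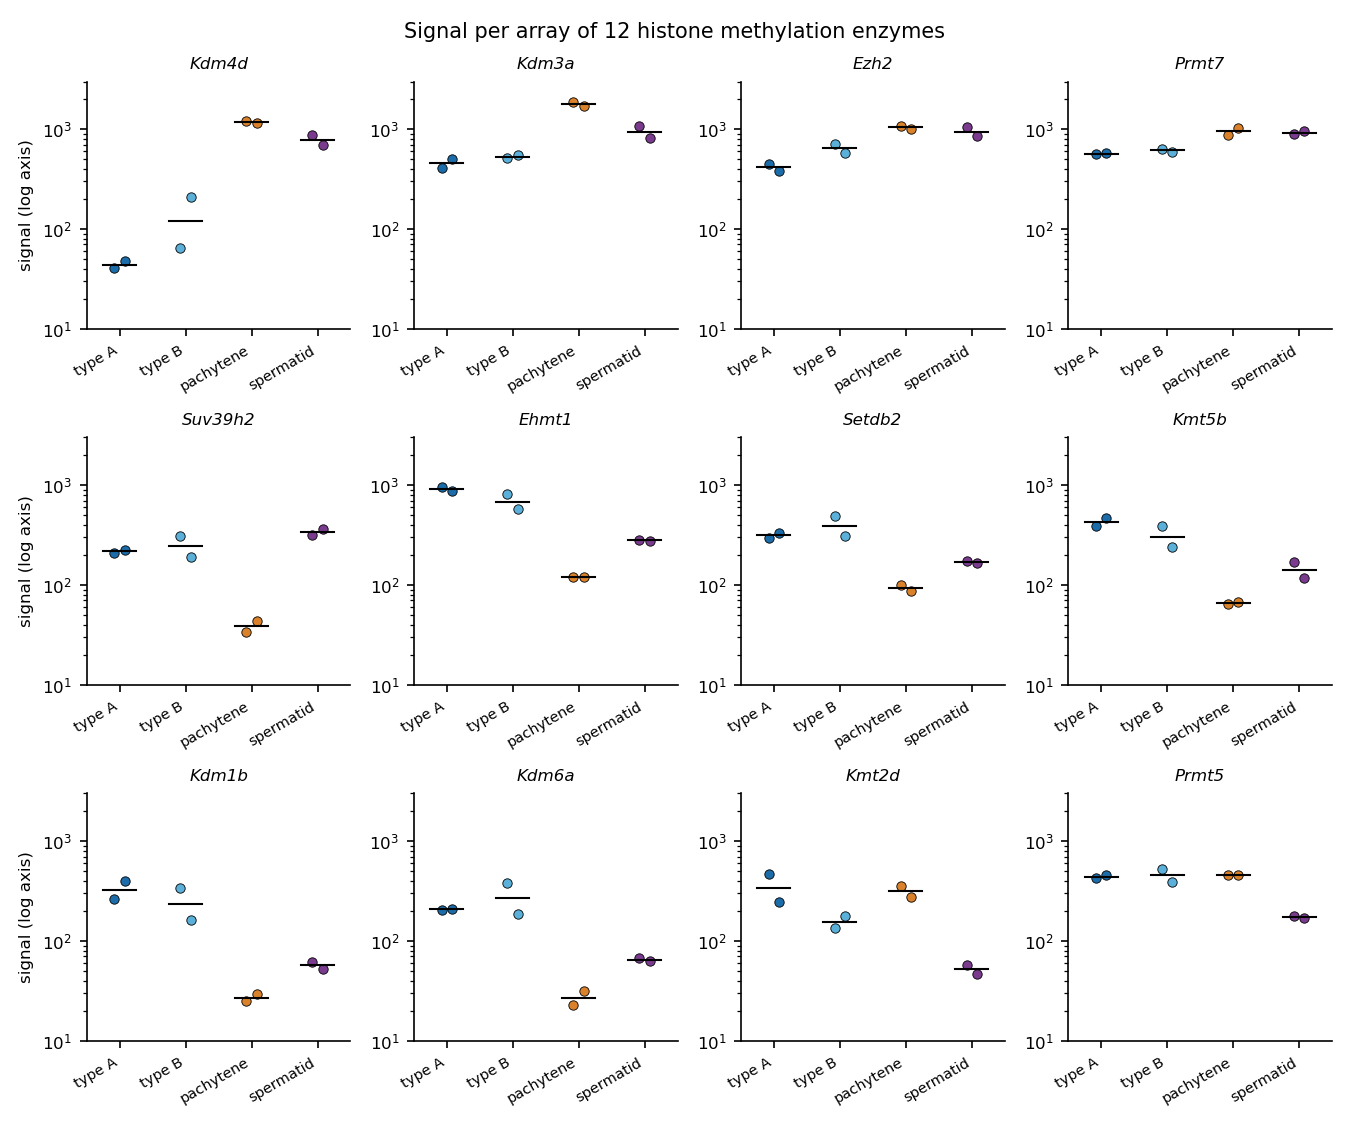
Signal of 12 members on each array (log axis), by stage; points are arrays and bars are group means on the log2(signal + 16) scale. Kdm4d is at 40.2 to 210.4 on the spermatogonial arrays and at 695 to 1209.5 later, Suv39h2 is at 34 and 43.3 in pachytene cells and at 192.4 to 365.8 elsewhere, and Kmt2d and Prmt5 are lowest in spermatids.

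Among 6 H3K4 demethylases, 4 fell in pachytene against type A (66.7%, beside 35.6% of all genes) and none was called in spermatids against pachytene. The 4 include Kdm5d, which passed the filter through the spermatogonial arrays alone. Without the type B arrays, Kdm1b was called higher in spermatids (0.77, adjusted p = 0.0247) and Kdm5b lower (-0.61, adjusted p = 0.0411), and Kdm5b also with a pseudocount of 64, with the filter at a signal of 100, with a variance trend and with the replicate block (adjusted p of 0.0258 to 0.0447). Kdm1b, a flavin-dependent demethylase that in mouse oocytes is needed for imprints, had 261.3 and 397.3 in type A, 341.2 and 162.3 in type B, 24.8 and 29.2 in pachytene cells, and 62.2 and 52.8 in round spermatids. It fell in pachytene against type A, with a log2 change of -2.98 ± 0.34 (adjusted p = 0.000211). No other member had a lower change on this scale, but with a pseudocount of 4 Kdm1b was at -3.40 and Ezhip at -3.51. Its paralog Kdm1a, the LSD1 demethylase, was not called (0.22 ± 0.21). The pachytene values of Kdm1b lay below the array medians. Kdm5a fell by 1.06 ± 0.30, a call lost without type A replicate 2 or pachytene replicate 2 (adjusted p of 0.0893 and 0.089), and Kdm5b was not called (-0.09 ± 0.21, and 0.056 without type A replicate 1), although its other probe set, 1427142_s_at, rose by 1.21 ± 0.23 in pachytene against type A and fell by 1.63 ± 0.23 in spermatids against pachytene.

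Of the 4 genes listed as H3K27 and other JmjC demethylases, 3 fell in pachytene against type A (75%, beside 35.6% of all genes). Kdm6b, the inducible H3K27 demethylase, had 754.6 and 667.7 in type A, 696.9 and 581.3 in type B, 114.2 and 115.9 in pachytene cells, and 133.8 and 165.6 in spermatids. Kdm7a, which demethylates H3K9 and H3K27, had 949.9 and 714.3 in type A, 631.8 and 584.3 in type B, 163.7 and 120.7 in pachytene cells, and 183.1 and 134.8 in spermatids. In both genes no later value reached any spermatogonial one. The changes against type A were -2.47 ± 0.20 for Kdm6b and -2.42 ± 0.25 for Kdm7a (adjusted p = 8.54e-05 and 0.000144), and neither was called in spermatids against pachytene. Kdm8, the remaining member of that list, was not called between pachytene and type A (0.02 ± 0.21), and its fall of 0.68 ± 0.21 in spermatids was lost without any 1 of the type A, pachytene or spermatid arrays (adjusted p of 0.0534 to 0.165).

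The 3 sex-linked demethylases had lower values in pachytene cells than in type A. Pachytene is the stage at which the X and Y are known to be silenced, and the part of that silencing in these values was not tested. Kdm6a, the X-linked H3K27 demethylase, had 206.4 and 207.6 in type A, 383.9 and 185.7 in type B, 23.1 and 31.2 in pachytene cells, and 67.6 and 62.6 in round spermatids. It fell in pachytene cells, with changes of -2.38 ± 0.31 against type A and -2.72 ± 0.31 against type B (adjusted p = 0.000345 and 0.00029). The higher spermatid values were not called against pachytene (0.92 ± 0.31, adjusted p = 0.0513) and passed without the type B arrays. Its autosomal relative Kdm6b, given above, fell in pachytene cells too.

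Kdm5d, the Y-linked H3K4 demethylase, had 107.2 and 109.2 in type A, 99.2 and 58.9 in type B, 14.3 and 15.5 in pachytene cells, and 21.8 and 18.4 in spermatids. It was lower in pachytene cells than in type A by 2.01 ± 0.24. Kdm5d passed the filter through the spermatogonial arrays alone, so this difference is given as a description and not as a test. Kdm5c, its X-linked paralog, had 159.5 and 90.2 in type A, 75 and 76.3 in type B, 41.6 and 59 in pachytene cells, and 56.6 and 80 in spermatids. Type A replicate 1 was its highest array, and the fall of 1.05 ± 0.29 against type A (adjusted p = 0.0119) was lost without that array or without pachytene replicate 1, with changes of -0.69 and -0.86 (adjusted p of 0.0785 and 0.084). Against type B it was not called (-0.48 ± 0.29, adjusted p = 0.183), and its pachytene values lay above the array medians and overlapped with those of spermatids. Of the other fitted Kdm5c probe sets, 1444158_at fell by 1.79 ± 0.21 in pachytene against type A.

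Probe sets of the same gene disagreed for some members, and the brightest one does not settle those. Of 24 called members with several fitted probe sets in pachytene against type A, 20 had the same sign in all of them, with Nsd3, Prmt3, Prmt7 and Setd3 as exceptions. Against type B it was 16 of 21, with Kmt5b as a further exception, and in spermatids against pachytene 5 of 8, with Kmt2e, Kmt5b and Smyd1 as exceptions. Smyd1, a methyltransferase known for its role in heart and skeletal muscle, is the clearest case. Its brightest probe set, 1443727_x_at, had 87.4 and 68.4 in type A, 67.8 and 70 in type B, 98.8 and 78 in pachytene cells, and 198.6 and 230.7 in spermatids, and rose by 1.15 ± 0.21 in spermatids against pachytene (adjusted p = 0.00364). The probe set 1441667_s_at had 1.3 and 0.4 in type A, 1.1 and 10.1 in type B, 132.6 and 113.2 in pachytene cells, and 30.6 and 23.2 in spermatids. It passed the filter through the pachytene arrays alone, so its change is not tested here. The probe set 1450203_at, above the array median on the pachytene and spermatid arrays, had 50.2 and 48 in spermatids, against 115.5 and 140.4 in pachytene cells, and fell by 1.14 ± 0.25. The suffix x marks probe sets whose probes can match other genes, and which transcript each of them reads was not tested.

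For Nsd3, an H3K36 methyltransferase, the brightest probe set, 1442085_at, rose by 1.10 ± 0.24 in pachytene against type A, with 235.5 and 184 in pachytene cells and 106.3 and 73.9 in type A. The nearly as bright 1447931_at fell by 1.94 ± 0.36, with 70.5 and 33.6 in pachytene cells and 326.4 and 167.6 in type A, and 1457793_a_at fell by 1.07 ± 0.19. No direction can therefore be given for Nsd3 as a gene. With the mean over all probe sets of a gene, the changes of Nsd3 and Setd3 against type A were -0.61 and -0.16, that of Smyd1 in spermatids was -0.36, and the calls of Prmt7 against type A and of Kmt5b, Kdm4a and Kdm2a in spermatids were lost.

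**Figure D5:**
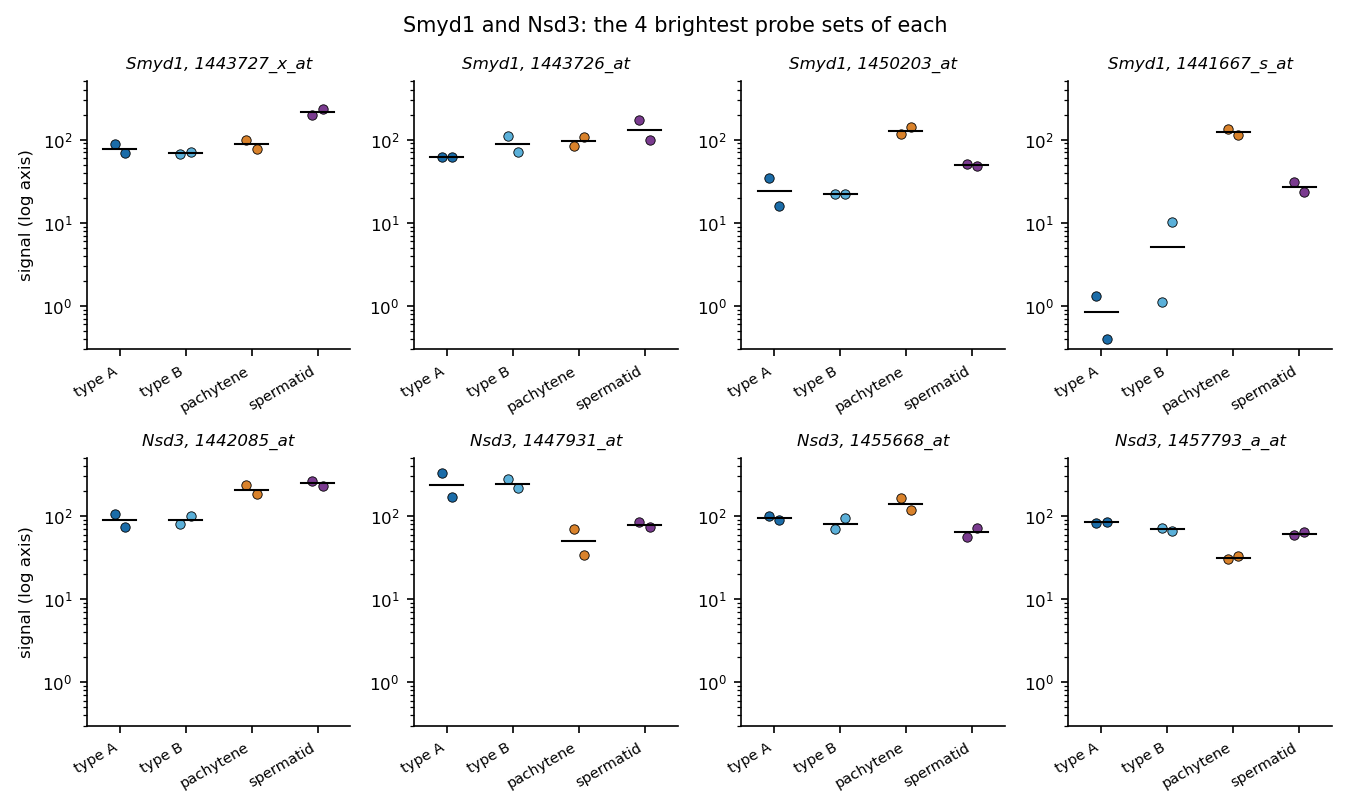
Signal per array (log axis) of the 4 brightest probe sets each of Smyd1 and Nsd3, by stage; points are arrays and bars are group means on the log2(signal + 16) scale. For Smyd1, 1443727_x_at is highest in spermatids while 1441667_s_at and 1450203_at are highest in pachytene cells, and for Nsd3, 1442085_at is higher and 1447931_at lower in pachytene cells than in type A.

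Between type B and type A cells no member was called by limma, nor was any of the 14155 genes (0%). At an unadjusted p under 0.05, 2 members were higher and 8 lower, beside 5.57% and 4.2% of all genes, and the smallest adjusted p was 0.487 among members and 0.347 among all genes. The smallest p values belonged to Smyd2 (-0.63 ± 0.18), Kmt2d (-1.05 ± 0.32), Dot1l (-0.69 ± 0.23), Ezh2 (0.61 ± 0.21) and Kdm4d (1.18 ± 0.42). On both arrays 6 members lay above and 24 below both type A values, beside 18.3% and 19.5% of all genes. The standard deviation of the replicate difference was 0.47 over the members in type B, against 0.36 in type A, 0.25 in pachytene cells and 0.27 in spermatids. Without type B replicate 1, Kdm4d was called higher and Setd5 lower, beside 8.18% and 1.4% of all genes; the remaining array is then assumed to vary like the other groups. Over all tested genes, type B replicate 2 correlated with the pachytene arrays at 0.697 and 0.72, against 0.5 and 0.514 for replicate 1. The shift of replicate 2 toward pachytene was therefore not particular to the members. Over the 33 members that fell between type A and pachytene cells, replicate 2 minus replicate 1 had a median log2 difference of -0.49. Over the 6 that rose the median was 0.12.

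Of 35 cofactors and related enzymes outside the symbol rule, 9 rose (25.7%, beside 27.2% of all genes) and 13 fell (37.1%, beside 35.6%) in pachytene against type A, near the shares over all genes. In spermatids against pachytene, 3 rose (8.57%, beside 15.9%) and 11 fell (31.4%, beside 19%). The 5 largest changes in pachytene cells were those of Rbbp7, Jarid2, Phf2, Phf1 and Psip1. Rbbp7, an X-linked histone chaperone of PRC2 and other complexes, had 2828.7 and 3294.1 in type A, 3289 and 2744.8 in type B, 289.5 and 363.1 in pachytene cells, and 492.5 and 438.3 in spermatids, and fell by 3.17 ± 0.21 in pachytene against type A. Jarid2, a cofactor that recruits PRC2, had 426.9 and 494.4, 540.2 and 297.3, 32.4 and 43.9, and 253.9 and 209.8 in the same order of stages. It fell by 3.14 ± 0.29 in pachytene against type A and rose by 2.20 ± 0.29 in spermatids against pachytene.

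Phf1, a further PRC2 cofactor, went the other way, with 199 and 162.8 in type A, 145.7 and 181.9 in type B, 1214 and 1065.5 in pachytene cells, and 1128.4 and 942.5 in spermatids, a rise of 2.56 ± 0.21 in pachytene against type A. Phf2, a JmjC protein linked to H3K9 demethylation, was highest in pachytene cells, with 163.9 and 164.4 in type A, 113.8 and 258.4 in type B, 1110.9 and 1102.5 in pachytene cells, and 274.8 and 176.3 in spermatids. It rose by 2.64 ± 0.35 in pachytene against type A and fell by 2.25 ± 0.35 in spermatids against pachytene (adjusted p = 0.0019). Psip1, a reader of H3K36 methylation, rose by 2.38 ± 0.24 in pachytene against type A, with 2689.3 and 2550.3 in pachytene cells and 463 and 518.9 in type A.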

How the data were processed

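RNA of 4 stages of male germ cells was measured on 8 Mouse 430 2.0 arrays, 2 per stage. For every array the authors deposited linear intensities, 1 per probe set; per the submitters' processing notes they come from MAS5. The sources used here give neither detection calls nor the MAS5 version. Without the lowest and highest 2% of values, each array's mean intensity was 125, so a change is always one relative to the other genes of that array.

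Names of probe sets came from the platform annotation and were updated with a RefSeq gene table (GRCm38.p6). Of 45101, 64 were controls, 34945 listed 1 gene, 932 several and 9160 none; 34741 of the 34945 matched the gene table and 204 did not. Each gene took the probe set with the highest mean, and was tested if that lay above the array median on at least 2 of 8 arrays. Values were analysed as log2(signal + 16) with limma 3.58.1 in R 4.3.3 (1 mean per group, eBayes without trend, 4 residual and 4.01 prior degrees of freedom), checked on simulated data. A second fit used all 24514 single-gene probe sets that passed the same filter, control spots left out. The number of arrays limits the precision. Slide and scan batches are not given here.

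Members, gene lists and the rule for values on all arrays (the 10 largest called changes per comparison, the 5 smallest p between type B and type A, 15 preset members, 5 cofactors) were chosen with earlier results of these data known. Replicate numbers did not pair the samples (correlations of replicate differences -0.175 to 0.169). Alternatives covered the pseudocount, the filter, the scaling, the probe set per gene, the variance model, a block and leaving out arrays. No protein alignment was made.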

Additional observations from a re-analysis of the deposited data

How the results depend on the processing

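Each of the 12 member counts and medians was recomputed under 19 other settings for comparisons without type B arrays and 18 for those with them, and members called in the main setting kept their call under every one for 29 of 39 between pachytene and type A, 26 of 37 between pachytene and type B and 7 of 18 between spermatids and pachytene. The members' median between pachytene and type A was -0.65 with a pseudocount of 64, -1.18 with a signal of at least 100 on 2 arrays, -0.76 with quantile normalization, -0.61 with centring on the median and -0.74 with the mean over probe sets; between pachytene and type B it was -0.47 with quantile normalization and -0.25 with centring on the median, where 15 members rose. Between spermatids and pachytene the median was 0.0040 with centring on the 75th percentile. In that comparison 3 members rose with the mean over probe sets and 10 without both type B arrays, beside 14% and 19.1% of all genes.

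Leaving out 1 array at a time gave 5 to 6 rises and 29 to 37 falls between pachytene and type A, 5 to 9 and 25 to 33 between pachytene and type B (median -0.49 to -0.90), 3 to 10 and 5 to 17 between spermatids and pachytene, and 0 to 1 and 0 to 1 between type B and type A (median -0.32 to -0.0070). The replicate block gave 6 and 34, 9 and 31, 6 and 13, and 0 and 0 in that order of comparisons; the samples share only a number.

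Signs turned for these of the single members recomputed, which are all called members and those given with values in the text. With quantile normalization Kdm1a was -0.18 against type A, Kdm1a -0.078 and Kdm5b -0.062 against type B, and Prmt5 was -0.11 against type A and -0.11 against type B, and with the 75th percentile -0.0099 and -0.012, with Kdm8 at -0.043 against type A. With centring on the median, Ehmt2 was 0.27, Kmt2d 0.25, Setd2 0.094, Eed 0.019 and Kdm5b 0.26 against type A, and Ezh1 0.13, Kmt2e 0.046 and Setdb1 0.21 against type B. With the mean over probe sets, Nsd3 was -0.61 (adjusted p = 0.0347), Setd3 -0.16, Ehmt2 0.21, Eed 0.32 and Kmt2d 0.0056 against type A, Nsd3 -0.47, Prmt7 -0.093, Setd3 -0.030, Eed 0.21 and Ezh1 0.033 against type B, and Smyd1 -0.36, Setd1b -0.13 and Setd5 0.20 in spermatids. Over the left-out arrays, the ranges that cross 0 among them were those of Kmt2d (-0.56 to 0.35), Kdm5b (-0.24 to 0.056), Dot1l (-0.080 to 0.47) and Prmt6 (-0.0013 to 0.37) against type A, of Prmt5 (-0.19 to 0.21), Setd2 (-0.11 to 0.33) and Setdb1 (-0.56 to 0.21) against type B, and of Kdm7a (-0.056 to 0.35) and Ezh2 (-0.29 to 0.00057) in spermatids. Of these, Nsd3, Setd3, Prmt7 and Smyd1 were called in the main setting; the cause was not tested. Signals near the array median limit what dim members such as Prdm9 can show.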
